A study of Mus musculus with 12 samples.

Results

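Nes (ENSMUSG00000004891) encodes nestin, and its transcript was followed through the 12 RNA sequencing libraries in which it was deposited, as 1 of 982 genes. It was chosen by name, with its levels in these libraries known, because the edited lines lay on opposite sides of the control line. Its own levels are therefore a description and carry no test.

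RNA was sequenced from 6DT1 cells, a mouse mammary cancer line from an MMTV-Myc tumor of the FVB/NJ strain, to ask which transcripts change when Resf1 is disrupted. The 12 libraries were 3 each of sgControl (a scramble guide, genotype given as wild type) and of sg1, sg2 and sg3 (guides against Resf1, genotype given as knockout). All lines shared the 6DT1 background and growth in medium with puromycin. Each edited line was grown from a single cell, so a guide and the clone that carries it cannot be told apart, and the 3 libraries of a line are dishes of 1 line whose spread may be technical. Resf1 itself was not analysed here, so the genotype was not checked on the targeted gene. The deposited values are estimated reads per gene, each library divided by its own size factor, and are called normalized counts below. They sum to between 2069298 and 2713951 per library over the 982 genes, which is a part of each library and not its depth.

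Nestin is an intermediate filament protein. It does not form filaments alone and assembles with partners such as vimentin. It is best known from neural stem and progenitor cells, where it falls as cells differentiate, and it is also made in developing muscle, in newly formed blood vessels and in basal cells of the mammary gland. In bulk RNA, fewer cells with the transcript and less transcript per cell cannot be told apart.

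The region around the start of Nes is shown because the transcript read from it is the quantity that varied. It is given 5′ to 3′ from RefSeq (GRCm38.p6, chr3:87970843-87971142, plus strand), from 250 bases before to 50 bases after the annotated start, and the capitals mark GC boxes. The mouse build used by the authors is not stated, and the paper names only a human build for its RNA sequencing reads.
Nes promoter: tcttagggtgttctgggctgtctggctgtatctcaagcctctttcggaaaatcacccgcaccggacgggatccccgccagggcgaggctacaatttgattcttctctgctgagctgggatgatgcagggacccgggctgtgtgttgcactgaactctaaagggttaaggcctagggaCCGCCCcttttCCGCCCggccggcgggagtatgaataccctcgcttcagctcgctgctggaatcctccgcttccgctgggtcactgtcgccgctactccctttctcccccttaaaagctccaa

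This window held 2 matches to the GC box (GGGCGG or its complement CCGCCC), beginning at positions -73 and -62 from the start. A GC box was found in 35.7% of 32851 mouse promoter windows of the same length. The CACGTG E-box, the CCAAT box (CCAAT or ATTGG) and the TATA box (TATAAA or TTTATA) had no match, against 7.15%, 37.4% and 13.6% of the windows. Both strands were searched. GC content was 58.7%, with a median of 52.7% over all windows.

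The 4 lines held Nes at 4 separate levels. In sgControl the normalized counts were 151, 161 and 142, a mean of 152 ± 9.70 (SD, n = 3). The sg1 libraries were the highest of the series, with normalized counts of 2344, 2454 and 2082 (2293 ± 191, n = 3). The sg2 libraries held 935, 981 and 959 normalized counts (958 ± 22.9, n = 3). In sg3 the normalized counts were 5.82, 5.78 and 4.56 (5.39 ± 0.714, n = 3), close to 0. Thus Nes was above every control library in the 6 libraries of sg1 and sg2 and below every control library in the 3 libraries of sg3.

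**Figure D1:**
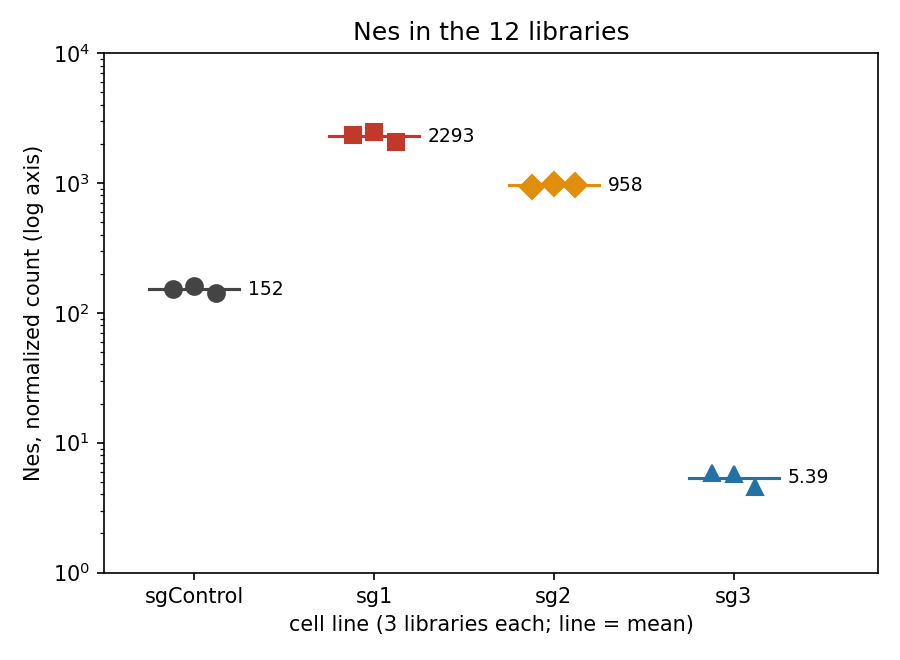
Normalized count of Nes (log axis) in each of the 12 libraries by cell line. Points are libraries and horizontal lines are the means of 3 libraries, which stand at 2293 in sg1, 958 in sg2, 152 in sgControl and 5.39 in sg3 with no overlap between lines.

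The sg1 mean was 15.1 times the sgControl mean, and any sg1 library was at least 12.9 and at most 17.3 times any control library. The sg2 mean was 6.32 times that of sgControl, with library ratios from 5.79 to 6.91. The sgControl mean was 28.1 times the sg3 mean, with library ratios from 24.4 to 35.4. Between the edited lines themselves, sg1 stood 2.39 times above sg2 (library ratios 2.12 to 2.62), sg2 stood 178 times above sg3, and sg1 stood 426 times above sg3. On the scale of log2(normalized count + 1), which understates the change of low values, the differences from sgControl were 3.91 for sg1, 2.65 for sg2 and -4.58 for sg3.

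The order sg1, sg2, sgControl, sg3 held for every library, so no neighbours in it met. Over the table, 9.47% of the genes had no overlap between any pair of the 4 lines. The libraries of a line lay close together, since the SD of Nes within a line was between 0.03 and 0.17 on the log2 scale, beside a median of 0.09 over the table. The log2 range across the 4 line means was 8.49 for Nes, ranked 2 of 982, and the median gene had a range of 0.63. Kctd17 ranked above it with a range that was also 8.49 as rounded, and the rank was not repeated under other settings.

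The sg3 level rests on few reads. Multiplied back by the size factors, the sg3 libraries held an estimated 5, 6 and 5 reads of Nes, against 154, 178 and 149 in sgControl, 895, 985 and 1101 in sg2, and 2204, 2530 and 1884 in sg1. The exact Poisson 95% interval of the sg3 level was 3.05 to 8.68 normalized counts. For summed reads, the fold of sgControl over sg3 was 28.4 with an exact interval of 17.3 to 50.1, and that of sg1 over sg3 was 431 with an interval of 265 to 754. These intervals cover counting error only.

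The average over the edited lines matched none of them. Over the 9 edited libraries the mean of Nes was 1086 normalized counts with an SD of 999.8, which is 7.16 times the control mean, although 3 of the 9 libraries were below every control. The mean of the 3 log2 differences was 0.66. In the contrast of the 3 guides together against sgControl, each of the 982 deposited genes had an unadjusted limma p under 0.05 (the largest was 0.0412). The deposited genes are thus a set that already differs between edited and control lines on average, and the shares of genes called below are shares of that set.

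Within this set, few other genes had the directions of Nes. Opposite directions can cancel in the contrast of the 3 guides together. A set that differs in that contrast can therefore hold fewer such genes, and their rarity among all genes was not tested. A gene was called where its limma p, after Benjamini-Hochberg adjustment across all 982 deposited genes, was at most 0.05. Against sgControl, 89.2% of the table was called with sg1 (50.1% higher and 39.1% lower), 59.7% with sg2 (30.2% higher and 29.4% lower) and 59.9% with sg3 (26.5% higher and 33.4% lower), and 75.3% differed among the guides. The comparisons share the 3 control libraries. Higher with sg1 and sg2 and lower with sg3 were 8 of the other 981 genes (0.815%), namely Itga2, Celsr1, Ripk3, Map1a, Ttc9, Gimap9, Xlr and Gm2694. The opposite directions were found for 6 genes (0.612%), namely Slc9a3r2, 2810021J22Rik, Dsc2, Smarcd3, Bcat1 and Slc36a4. Without scaling, the genes called with sg2 and sg3 went from 586 and 588 to 329 and 333, and those with the opposite directions from 6 to 2 (4 when scaled to the table total). The full order of Nes with no overlap of libraries was shared by 11 genes (1.12%), of which Itga2, Ripk3, Map1a, Ttc9, Gimap9 and Gm2694 are among the 8 above and C1qtnf1, Cyth4, Aldh2, Il2rg and Tnfrsf26 are not. This order was counted on the values as deposited only.

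Likeness to Nes was measured by Pearson's r over the 12 libraries on the log2 scale. These libraries form 4 tight clusters, so r follows the 4 line means, and it is given without a test because the genes were chosen by it. The median r over 981 genes was 0.135, and 13 genes exceeded 0.9. The highest r was that of Ttc9 (0.982), a tetratricopeptide repeat gene, with a mean of 174 normalized counts in sgControl, 437 in sg1, 345 in sg2, and 80.4 for the libraries of sg3. The long noncoding RNA Gm2694 followed (0.977), at 23.7, 109, 75.4 and 9.05 in the same order. Both genes had the order of Nes over a far narrower range.

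Ripk3 (r = 0.974), the kinase that drives necroptosis, had normalized counts of 369, 359 and 380 in sgControl, 598, 625 and 614 in sg1, 503, 495 and 479 in sg2, and 81.5, 83.7 and 72.1 in sg3. Its sg3 libraries lie farther from the controls than its sg1 or sg2 libraries do. Map1a (0.964), which encodes a microtubule-associated protein and is the other cytoskeletal gene of the set, had a control mean of 1471 and means of 2628 (sg1), 2283 (sg2) and 1000 (sg3). Gimap9 (0.939), of a family of GTPases known from lymphocytes, had means of 30.7, 122, 56.8 and 15.4 in that order.

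Celsr1 and Fkbp11 had a high r with Nes and another order of means, and Xlr had the order of its means but overlapping libraries of sg1 and sg2. Celsr1 (0.943), an atypical cadherin of planar cell polarity, was higher in sg2 (1043) than in sg1 (800), with 569 in sgControl and 78.3 in sg3. Xlr (0.965) belongs to a family of near-identical X-linked genes among which reads can be split, so its control mean of 270 and its means of 606 (sg1), 526 (sg2) and 24.4 (sg3) are uncertain. Fkbp11 (0.937), a peptidyl-prolyl isomerase of the secretory pathway, had means of 214 in sgControl and 211 in sg2, and so lacked the high sg2 level.

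The lowest r belonged to Dsc2 (-0.928), which encodes desmocollin 2, a cadherin of desmosomes, the junctions to which keratin filaments attach. Its normalized counts were 199, 197 and 212 in sgControl, 2.13, 0.970 and 1.10 in sg1, 2.09, 6.97 and 4.36 in sg2, and 530, 533 and 604 in sg3. Dsc2 was thus near 0 in the lines where Nes was high and highest in the line where Nes was near 0. The sg1 values stand for 1 or 2 estimated reads each. The amino acid transporter Slc36a4 (-0.919) had a control mean of 366 and means of 259 (sg1), 209 (sg2) and 525 (sg3). The antisense transcript Gm15910 (-0.911), 2810021J22Rik (-0.906) and the zinc finger gene Zfp239 (-0.904) completed the 5 lowest, and 2810021J22Rik was the only gene with the exact reverse order and no overlap (0.102% of 981).

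**Figure D2:**
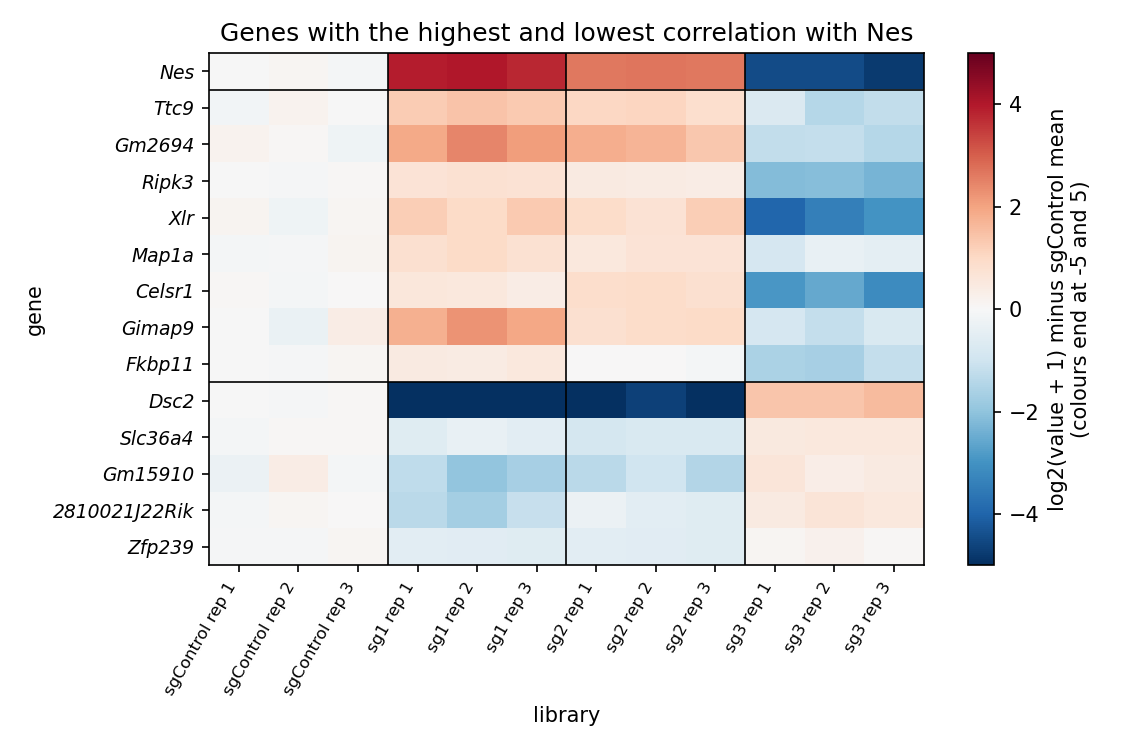
Log2(normalized count + 1) minus the sgControl mean in each library (columns) for Nes, the 8 genes with the highest and the 5 with the lowest correlation with Nes. Nes spans 8.49 between sg1 and sg3, and colours end at -5 and 5, which Dsc2 passes in sg1 and, on average, in sg2.

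Of a list of 50 intermediate filament genes, Nes included, 3 others were in the table: Krt8, Krt18 and Krt19, the keratins of simple and luminal epithelium. Vimentin, the usual partner of nestin, was not analysed here. All 3 keratins rose with sg1 (50.1% of the table did), 1 fell with sg2 and all 3 fell with sg3 (29.4% and 33.4% of the table), with median log2 differences of 0.80, -0.05 and -0.33 beside table medians of 0.20, -0.02 and -0.03. All 3 also differed among the guides, beside 75.3% of the table.

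Krt8 had normalized counts of 6051, 6418 and 6178 in sgControl, 13254, 14087 and 12660 in sg1, 5886, 6279 and 5891 in sg2, and 5011, 5613 and 5439 in sg3. The sg1 libraries stood far above, sg2 overlapped with sgControl, and sg3 lay under every control. By limma, Krt8 rose with sg1 by 1.10 ± 0.054 on the log2 scale (SE, adjusted p = 1.57e-11), fell by 0.22 with sg3 (adjusted p = 0.00324) and had a difference of -0.05 with sg2 (adjusted p = 0.45). Without scaling, the sg3 difference was -0.31 and was not called (adjusted p = 0.0659). Krt18, the partner with which the Krt8 protein pairs in filaments, rose with sg1 by 0.80 (adjusted p = 3.94e-10), fell by 0.33 with sg3 (adjusted p = 4.58e-05) and had a difference of -0.02 with sg2 (adjusted p = 0.747). Both keratins have pseudogene copies in the genome between which reads can be split.

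Krt19 came closest to Nes among the keratins (r = 0.879). Its normalized counts were 511, 423 and 551 in sgControl, 647, 678 and 543 in sg1, 419, 421 and 365 in sg2, and 168, 219 and 161 in sg3. The sg3 libraries were far below every control, the sg2 libraries just below the lowest, and the sg1 libraries overlapped with the controls. Krt19 fell by 1.44 ± 0.12 with sg3 (SE, limma adjusted p = 3.09e-08) and rose with sg1 by 0.33 (limma adjusted p = 0.0183), a call lost with adjusted p = 0.0598 to 0.108 on leaving out sg1 replicate 1, sg1 replicate 2 or sgControl replicate 2, and with adjusted p = 0.169 to 0.366 under the other 3 scalings. Its fall with sg2 (-0.29, limma adjusted p = 0.0483) was lost with the replicate number as a block (adjusted p = 0.0551) and when any of several single libraries was left out, with the highest adjusted p, 0.176, without sg2 replicate 3. No keratin rose with sg2, and the signs of the 3 keratins under the other 3 scalings were those given here. Scaled to the table total, all 3 were called lower with sg2, but that scaling moves the median gene by -0.20 with sg2 and leaves 300 of 982 genes above 0 against 479.

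**Figure D3:**
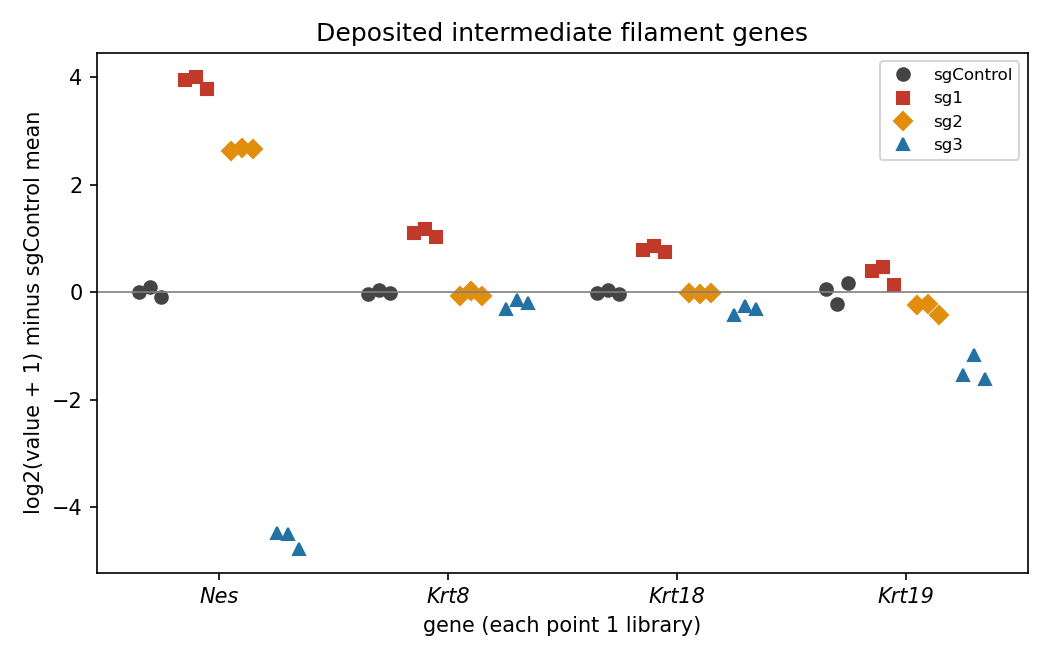
Log2(normalized count + 1) minus the sgControl mean for the 4 deposited intermediate filament genes, 1 point per library. Nes is 2.65 above sgControl in sg2 on average, where Krt8 (-0.05), Krt18 (-0.02) and Krt19 (-0.29) are at or under 0.

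Per kilobase of longest annotated transcript, which allows levels of different genes to be compared, Nes stood at 24.7 normalized counts in sgControl, where Krt19 stood at 314, Krt8 at 3174 and Krt18 at 4025. In sg1 Nes reached 374 per kilobase, close to Krt19 at 395. In sg3 Nes was at 0.879 and Krt19 at 116. By these means Nes was the lowest of the 4 deposited filament genes per length in each of the 4 lines.

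Cytolinkers, which tie intermediate filaments to other cell structures, were represented by 3 of a list of 30. All 3 rose with sg1, and only Macf1 rose with sg2 or sg3, beside 50.1%, 30.2% and 26.5% of the table called higher with sg1, sg2 and sg3. Plec, the gene of plectin, rose with sg1 by 0.69 (limma adjusted p = 7.97e-08) and had differences of 0.09 with sg2 and 0.00 with sg3 (adjusted p = 0.255 and 0.994). Ppl, which encodes periplakin, rose with sg1 by 0.75 (limma adjusted p = 2.13e-08) and had differences of -0.09 and 0.03 with sg2 and sg3. Macf1, which links microtubules and actin, rose with each guide (0.24, 0.25 and 0.25), and a difference among the guides was not found (limma adjusted p = 0.992). Scaled to the table total, Macf1 lost its call with each guide (0.02, 0.04 and 0.14, adjusted p = 0.815, 0.721 and 0.179), Ppl was called lower with sg2 (-0.29, adjusted p = 0.00487), and Plec with sg2 and sg3 and Ppl with sg3 changed sign.

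Genes of neural stem and progenitor cells, the setting in which nestin is best known, numbered 3 of 61 in the table besides Nes. Of these, 2 rose with sg1, 1 rose and 1 fell with sg2, and 1 rose with sg3. Of the table, 50.1%, 30.2% and 26.5% were called higher with sg1, sg2 and sg3, and 29.4% lower with sg2. Sox9 had normalized counts of 359, 347 and 406 in sgControl and of 811, 786 and 820 in sg1. It rose with sg1 by 1.12 (limma adjusted p = 1.29e-09), with a difference of 0.03 with sg2 (-0.17 scaled to the table total) and 0.18 with sg3 (adjusted p = 0.0538, and 0.039 with the replicate block). The receptor gene Notch1 rose with each guide, by 0.39, 0.36 and 0.31 (limma adjusted p = 0.000181, 0.000963 and 0.00329). Nr2f1, an orphan nuclear receptor, fell by 0.62 with sg2 (limma adjusted p = 7.82e-05). Scaled to the table total, Notch1 lost its call with each guide (0.18, 0.15 and 0.21, adjusted p = 0.0842, 0.165 and 0.0648), which left Sox9 with sg1 as the 1 higher call.

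Markers of the cell types in which nestin is made were read next to it. No member of the lists of 22 endothelial and 13 pericyte markers was in the table. Of 25 basal and myoepithelial markers 3 were deposited, of which 2 rose with sg1 and 1 with each of the others, near the 50.1%, 30.2% and 26.5% of the table called higher. Those higher calls with sg2 and sg3 were lost scaled to the table total, where Cav1 was called lower with sg2 (-0.21, limma adjusted p = 0.0333). With the replicate block, Procr gained a higher call with sg1 (limma adjusted p = 0.0393). Of 65 mesenchymal markers 9 were deposited, and 6 rose and none fell with each guide, beside 50.1%, 30.2% and 26.5% of the table called higher, although scaled to the table total 5, 4 and 3 of the 9 changed sign with sg1, sg2 and sg3 and only 3, 1 and 3 were called higher, with Fn1 called lower with sg2 (-0.31, adjusted p = 0.00573). Fn1, the gene of fibronectin, was 1 of the 6 that moved against Nes in sg3, and it rose there by 0.65 (limma adjusted p = 2.27e-06). With the replicate block, Fn1 with sg1 and Itgb1 with sg2 and sg3 gained a higher call (limma adjusted p = 0.0316, 0.0422 and 0.0494). Luminal epithelial markers were 4 of 44, the 3 keratins and Cgn. All 4 rose with sg1 and fell with sg3, and 2 of 4 fell with sg2, beside 50.1% of the table called higher with sg1 and 33.4% and 29.4% called lower with sg3 and sg2. Scaled to the table total, 3 of 4 were higher with sg1 and all 4 lower with sg2 and with sg3, and the sg1 and sg2 calls of Krt19 counted here are lost under the alternatives given above. Cgn, which encodes the tight junction protein cingulin, had a control mean of 45.0 normalized counts and means of 101 (sg1), 22.7 (sg2) and 3.42 (sg3).

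Of 20 leukocyte markers, Cd68 and Il2rg were deposited. Both rose with sg1 (50.1% of the table did), although Il2rg lost that call scaled to the table total (0.32 against 0.11, adjusted p = 0.36), and Il2rg fell by 3.41 with sg3 (limma adjusted p = 4.38e-16), from a mean of 954 normalized counts in sgControl to 89.2. Il2rg, which encodes a cytokine receptor subunit, had the library order of Nes, with 1192 in sg1 and 1034 in sg2, and an r of 0.927. The order was narrow, since its lowest sg2 library was at 1005.1 and its highest control library at 1003.8. Its difference of 0.12 with sg2 was not called (limma adjusted p = 0.185) and was -0.09 scaled to the table total. The part of other cell types in the level of Nes was not tested.

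The deposited genes around Nes on chromosome 3 were read by their own values. Within 1 Mb of Nes the annotation (GENCODE M21) lists 55 other protein-coding genes, of which 5 were deposited. All 5 were called lower with sg1, beside 39.1% of the table. Prcc, the nearest deposited gene before Nes with 5 coding genes between, had a control mean of 1443 normalized counts and means of 1187 (sg1), 1326 (sg2) and 1321 (sg3), and fell by 0.28 with sg1 (limma adjusted p = 0.000562). Its differences of -0.12 with sg2 and -0.13 with sg3 had adjusted p of 0.103 and 0.0872, and of 0.0387 and 0.0304 with the replicate block. Scaled to the table total they were -0.33 and -0.23 (adjusted p = 0.00245 and 0.0381). Mex3a, an RNA-binding protein gene and the nearest deposited gene after Nes, with 22 coding genes between, fell with sg1 (-0.51) and sg2 (-0.56; limma adjusted p = 0.0012 and 0.00119) and had a difference of 0.01 with sg3 (-0.09 scaled to the table total).

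Further out, the transcription factor gene Etv3 fell with sg1 (-0.67) and sg3 (-0.64; limma adjusted p = 3.9e-06 and 2.13e-05), and its difference of 0.18 with sg2 (adjusted p = 0.0913, and 0.0358 with the replicate block) was -0.02 scaled to the table total. Ubqln4 and Ssr2 fell with each guide, with log2 differences between -0.35 and -0.15. Nes in sg1 was thus 3.91 above sgControl on the log2 scale while its deposited neighbours within 1 Mb were between -0.67 and -0.15.

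Along the whole chromosome, 46 other genes were deposited. With sg1, 22 were higher and 18 lower, with sg2, 19 and 11, and with sg3, 12 and 13. These are 87.0%, 65.2% and 54.3% of the 46, beside the table's 89.2%, 59.7% and 59.9%. The median log2 differences were 0.21, 0.09 and -0.01. The calls of Nes were found for 0 of the 46, from which nothing can be read since 0.815% of the table had them. The highest r with Nes was that of Npnt (0.914), which had differences of 0.19 with sg1, 0.67 with sg2 and -1.92 with sg3.

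**Figure D4:**
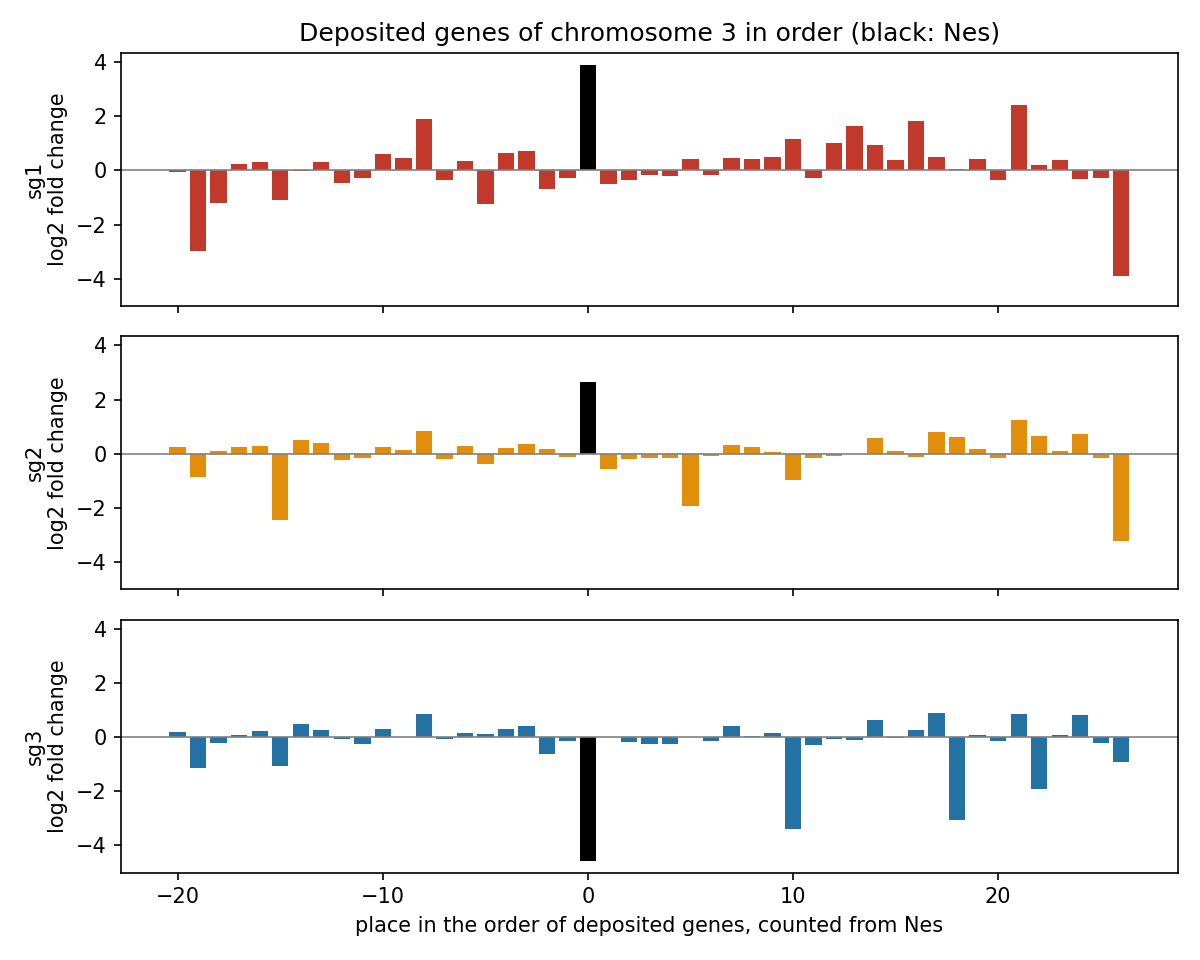
Log2 difference from sgControl with each guide for the deposited genes of chromosome 3 in their order along it, with Nes in black at place 0. Nes stands at 3.91, 2.65 and -4.58, and the genes next to it at places -2 to 3 lie between -0.67 and 0.18, with places counting deposited genes and not distance.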

How the data were processed

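Per the labels, cells were seeded in triplicate and RNA was made into TruSeq stranded total RNA libraries. The labels' treatment text describes a knockdown in human cells and not these lines. The submitters' processing notes name STAR 2.7.8a, Partek and DESeq2. The mouse build, annotation and counter are not given in the sources used here. Values were deposited as a normalized signal, which is estimated counts over a size factor (0.859 to 1.15 per library, read from the smallest step of the values). Since whole reads were recovered for only part of the values, no count model was used for the calls. Only the exact intervals of Nes treat its estimated reads as counts.

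Here limma 3.58.1 (R 4.3.3) was fitted to log2(value + 1) of all 12 libraries and 4 groups, with trend and robust settings and two-sided p adjusted by the Benjamini-Hochberg method over 982 genes at 0.05. An error in a size factor shifts all genes of that library alike. The gene and the lists were chosen with earlier results of these data known. Genes were named by rule: the 8 highest and 5 lowest r with Nes, deposited filament genes, at most 6 called members of each other list by the smallest p among the guides, and deposited neighbours within 1 Mb. Genes sharing the calls or order of Nes were named after their values were seen. Not every gene picked is described. Symbols of 972 genes matched GENCODE M21, whose longest transcripts gave lengths, and the promoter came from RefSeq. Pooled over the genes of the table, no pair of replicates agreed within sampling noise (chi-square over degrees of freedom at least 12.96). That pooled value includes 1 feature holding 16.1% to 32.9% of the sums, and it does not give the spread of single genes.

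Same-numbered libraries deviated together, by correlation of deviations from group means, between sgControl and sg1 (0.199 to 0.238) and between sgControl and sg2 (0.122 to 0.164), but not between sgControl and sg3 (-0.079 to -0.004). Between edited lines the range was -0.064 to 0.324, and 11 of all 18 same-number pairs passed 0.1. What a replicate number stands for is not in the labels. Alternatives were other scalings, pseudocounts, a filter, the replicate block and leaving out each library.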

Additional observations from a re-analysis of the deposited data

Results flagged for a closer look

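Every sg1 library was above and every sg3 library below the controls in Nes, 8.49 apart on the log2 scale, and this difference was not tested. Other named genes differed among the guides by limma's F test, with adjusted p as follows. Members of the lists other than filament genes were named in the order of this p, so the values partly reflect that choice. The named genes Notch1 (0.592), Macf1 (0.992) and Ssr2 (0.145) were not called by this test. Among filament genes the adjusted p was 5.48e-13 for Krt8, 4.06e-12 for Krt18 and 1.92e-09 for Krt19. Among cytolinkers it was 4.39e-09 for Ppl and 8.22e-08 for Plec, and among progenitor genes 1.48e-09 for Sox9 and 0.000158 for Nr2f1. Among mesenchymal markers it was 3.32e-07 for Fn1, 5.07e-07 for Tpm2, 2.01e-05 for Tgfbr2, 0.000119 for Itgb1, 0.00366 for Itgav and 0.00616 for Col6a3. Among other cell type markers it was 8.17e-11 for Cgn, 6.34e-06 for Cav1, 0.0421 for Procr, 4.27e-17 for Il2rg and 3.32e-06 for Cd68. Among neighbours of Nes it was 1.54e-07 for Etv3, 0.047 for Prcc, 0.000757 for Mex3a and 0.0423 for Ubqln4. Of the whole table, 75.3% differed among the guides.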

How the results depend on the processing

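The order of the 4 lines in Nes and the sign of its log2 differences held under each alternative run. The sg1 difference was 3.75 with median-of-ratios scaling over this table, 3.77 without scaling and 3.70 scaled to the table total, the sg2 difference was 2.45 scaled to the table total, and the sg3 difference was -3.91 with a pseudocount of 5. Leaving out single libraries gave 3.86 to 3.98, 2.61 to 2.7 and -4.63 to -4.49. Without scaling, 329 genes were called with sg2 and 333 with sg3, against 586 and 588, and 2 against 6 had calls opposite to Nes. Leaving out a library gave 818 to 889, 454 to 612 and 452 to 622 called genes with sg1, sg2 and sg3, 686 to 745 differing among the guides, 8 to 11 with the calls of Nes and 5 to 6 opposite. Scaling to the table total moved the median gene by -0.21 with sg1, -0.20 with sg2 and -0.10 with sg3, and 1 feature without a symbol holds 16.1% to 32.9% of these sums. This scaling reversed small differences: Ppl with sg3 (-0.07), Plec with sg2 (-0.12) and sg3 (-0.10), Sox9 with sg2 (-0.17), Fn1 with sg1 (-0.05), Tpm2 with sg2 (-0.05), Tgfbr2 with sg2 (-0.03) and sg3 (-0.08), Itgb1 with sg2 (-0.11) and sg3 (-0.01), Itgav with sg1 (-0.10), Cav1 with sg3 (-0.02), Procr with sg1 (-0.05), Il2rg with sg2 (-0.09), Etv3 with sg2 (-0.02) and Mex3a with sg3 (-0.09). Krt18 with sg2 was 0.00 without sgControl replicate 2, an alternative chosen after seeing the data. With the replicate block, of 75 differences of named genes 66 stayed on their side of the threshold, called or not, 8 gained a call and 1, Krt19 with sg2 (-0.29, adjusted p = 0.0551), lost it, and 10 genes had the calls of Nes. The calls gained were Sox9 with sg3, Fn1 and Procr with sg1, Itgb1 with sg2 and sg3, Etv3 with sg2, and Prcc with sg2 and sg3. Of the 8 most like genes, 7 stayed when scaled to the table total or with a pseudocount of 5, where Fkbp11 left, and 5 by Spearman's rank correlation, where Fkbp11 (0.783), Celsr1 (0.769) and Xlr (0.874) left. The low read number of Nes in sg3 limits the fold against that line.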
